A study of Mus musculus with 8 samples.

Results

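Transcripts of 44 mitosis genes were followed in mouse liver. They were taken from a given list of mitotic kinases and of spindle, kinetochore and cytokinesis genes, and each was read through the probe set annotated to that symbol alone, the brightest one where a gene had several. Of the 44, 43 were measured among 19938 genes, and the expression of Ccnb1 was not analysed here. The livers came from 4 transgenic mice with constitutively active IKK2 under the LAP promoter and from 4 wild type controls, all 4 weeks old, and each liver had its own Affymetrix array. Mice of both groups were a C57BL/6 and NMRI mixture, crossed back onto C57BL/6 at least 4 times. IKK2 is the kinase that frees the transcription factor NF-kB from its inhibitors, and the LAP promoter is active mainly in hepatocytes, while the RNA was that of the whole organ. Per the labels, each array of a group is a biological replicate.

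Mitosis genes are switched on late in the cell cycle and are low in resting cells. Their products condense the chromosomes, build the spindle, hold chromosomes to it until all are attached, and cut the daughter cells apart. In adult liver few cells divide, whereas the liver of a young mouse still grows, and resident macrophages and infiltrating leukocytes can divide there as well. In RNA from whole tissue, more dividing cells and more RNA of these genes per cell cannot be told apart.

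The labels were first checked on the gene of the kinase. Ikbkb read 8.995, 9.09, 8.38 and 8.38 in transgenic livers 1 to 4 and 7.44 to 7.85 in the controls (values are log2 expression throughout). The 10 measured hepatocyte markers had a mean of 12.28 to 12.54 in transgenic and 12.44 to 12.57 in control arrays, so the markers of the tissue itself were present. Array medians were 4.88 to 5.08, and correlations between arrays were 0.952 to 0.994. Transgenic liver 2 stood apart: it had the lowest median and the highest upper quartile (7.06), and its values are given separately below.

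All 43 measured mitosis genes had a positive log2 fold change (transgenic minus control), against 38.4% of all genes. Espl1 alone turned negative without transgenic liver 2, without control 1 and with array weights. The median change was 0.94, with a range of 0.0033 for Espl1 to 1.75 for Bub1, whereas the median of all genes was -0.07. With limma, adjusted by Benjamini and Hochberg over all probe sets tested, 5 genes rose at an adjusted p under 0.05: Bub1, Top2a, Mki67, Kif11 and Smc2. That is 11.6% of the mitosis genes, against 4.67% of all genes. None fell, against 1.67% of all genes. Another 24 genes had an adjusted p from 0.05 to under 0.1 and 14 one of 0.1 or more. At an unadjusted p under 0.05, 36 were higher, against 15.3% of all genes; Ccnb2, Cdc20, Ube2c, Espl1, Spc25, Birc5 and Cdca3 were the other 7. In all, 17 of 43 read at least 2-fold higher, against 2.87% of all genes. In 22 every transgenic array lay above every control, against 11.2% of all genes.

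The calls depended on single arrays. Without transgenic liver 1, or without any 1 of the 4 controls, none of the 43 was called by limma. At an unadjusted p under 0.05, 26 to 37 were higher, which was not counted over all genes. In those 5 fits the share of all genes called higher was itself only 0.963% to 1.34%, so a count of 0 is near the background. Without transgenic livers 2, 3 or 4 the counts were 9, 12 and 17, against 4.9%, 6.82% and 8.21% of all genes. Centring each array on its median left 2 calls, against 3.1% of all genes. Fitting all deposited probe sets left none, against 2.13% of all genes called higher. In that fit 35 were higher at an unadjusted p under 0.05, which was not counted over all genes. The number called therefore gives no firm count of the genes that changed, whereas the median change stayed between 0.65 and 1.08 over all 8 omissions.

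**Figure D1:**
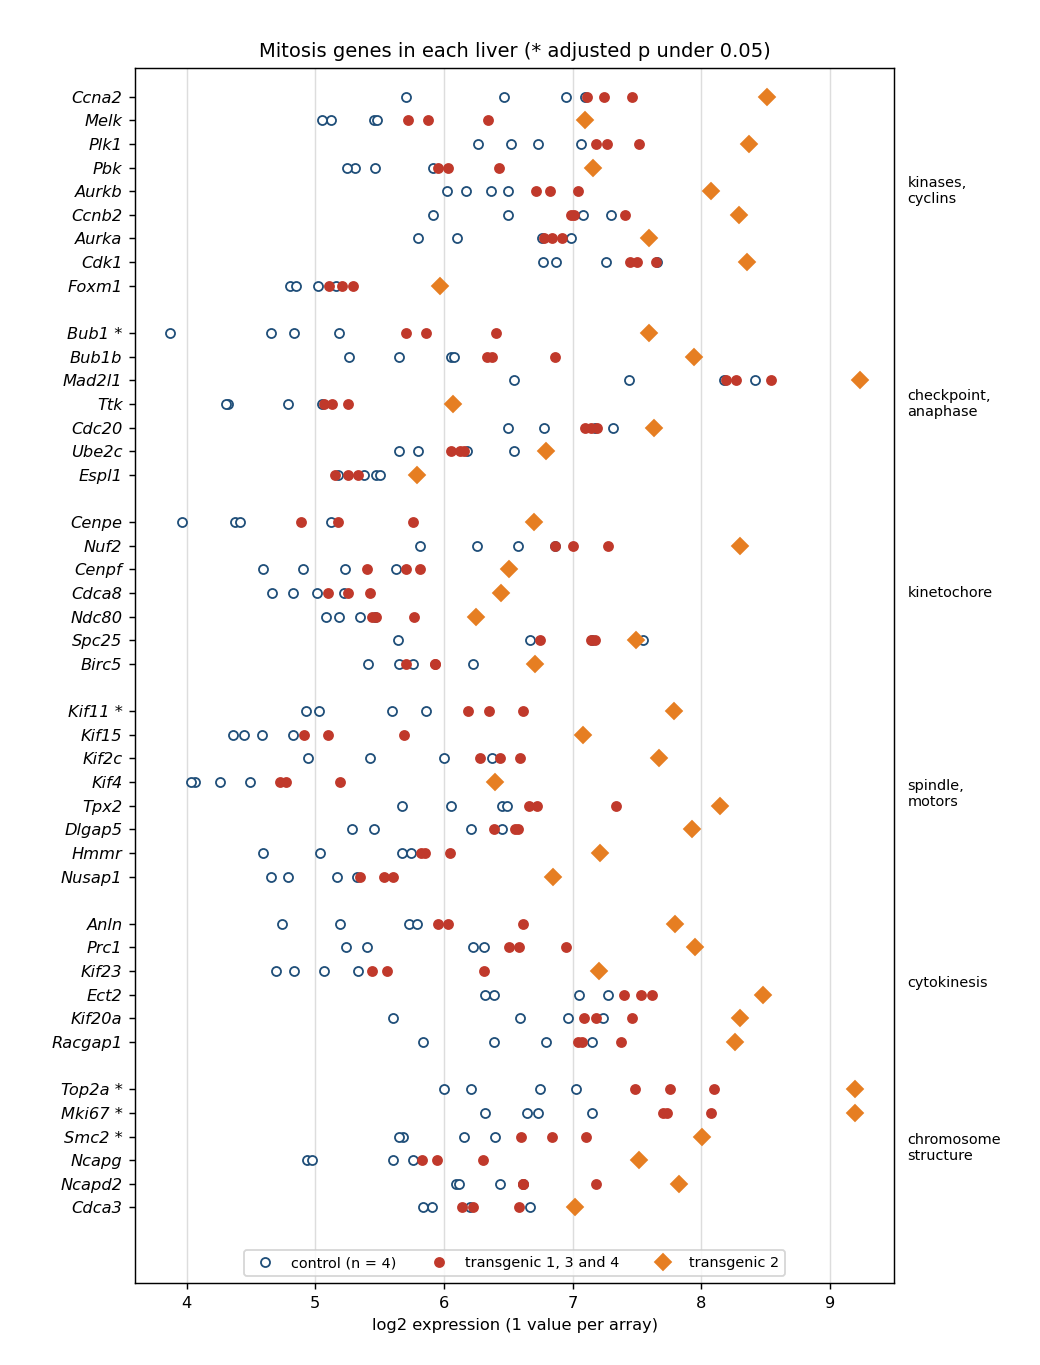
Log2 expression of each of the 43 measured mitosis genes (rows, grouped by role) in each of the 8 livers. Open circles are the 4 controls, filled circles transgenic livers 1, 3 and 4, and diamonds transgenic liver 2, which read highest among the transgenic livers in all 43 rows. Asterisks mark the 5 genes with an adjusted p under 0.05.

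The largest group of calls lay among genes of chromosome structure and proliferation markers, where 3 of 6 rose and 3 did not pass (median 1.12). Calls in each role stand against 4.67% of all genes called higher, and full separation of the groups against 11.2%. With so few genes in a role, 1 call or none is near the share of all genes. Mki67 encodes Ki-67, the coat protein of mitotic chromosomes used as a marker of cycling cells. It (probe set 10568714) read 8.08, 9.20, 7.70 and 7.74 in transgenic livers 1 to 4 and 6.64, 6.73, 6.32 and 7.15 in controls 1 to 4. The groups did not overlap: the lowest transgenic value was above the highest control. Its log2 fold change was 1.47 (2.77-fold, SE 0.31, limma adjusted p = 0.0323). Without transgenic liver 2 the change was 1.13 (adjusted p = 0.00529). That liver read highest of its group for all 43 genes, so leaving it out narrows the transgenic spread. Values of p without it, here and for the genes below, are therefore no added support. Over the 16 alternatives the limma adjusted p of Mki67 ranged from 0.00529 to 0.0971. Top2a, the topoisomerase that untangles sister chromatids (probe set 10390707), read 8.10, 9.19, 7.75 and 7.49 against 6.21, 6.75, 6.00 and 7.03. Again all 4 transgenic livers were above all controls, with liver 2 highest. The log2 fold change was 1.64 (3.11-fold, SE 0.35, limma adjusted p = 0.0342), and 1.28 without transgenic liver 2 (adjusted p = 0.0128). Smc2, a core subunit of both condensins (probe set 10504957), read 7.10, 8.002, 6.84 and 6.60 against 5.68, 6.16, 5.65 and 6.40. Here transgenic liver 4 lay only just above control 4. The log2 fold change was 1.16 (2.24-fold, SE 0.29, limma adjusted p = 0.0466). The condensin subunits Ncapg and Ncapd2 had log2 fold changes of 1.08 and 0.74 (adjusted p = 0.0811 and 0.0902), and Cdca3, a trigger of mitotic entry, one of 0.34 (adjusted p = 0.30).

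Among genes of the spindle checkpoint and anaphase 1 of 7 rose and 6 did not pass (median 0.77), against 4.67% of all genes called higher. The checkpoint kinase Bub1 had the largest change of all 43. It (probe set 10487480) read 6.41, 7.59, 5.70 and 5.86 in transgenic livers 1 to 4, against 4.83, 4.66, 3.87 and 5.19 in the controls. The groups did not overlap, yet both varied widely (SD 0.86 and 0.56, n = 4 each). The log2 fold change was 1.75 (3.37-fold, SE 0.41, limma adjusted p = 0.0403), and 1.35 without transgenic liver 2 (adjusted p = 0.0206). Bub1b, Mad2l1 and Ttk, which like Bub1 delay anaphase until chromosomes are attached, had changes of 1.12, 0.92 and 0.77 (adjusted p = 0.069, 0.133 and 0.0757). The genes that carry anaphase out had small changes. Espl1, the separase that cuts cohesin, read 5.34, 5.79, 5.15 and 5.26 against 5.17, 5.38, 5.47 and 5.50, a change of 0.0033 (SE 0.14). Only transgenic liver 2 was above the controls, and without it the sign turned (-0.13). Ube2c, the ubiquitin-conjugating enzyme of the anaphase-promoting complex, read 6.05, 6.79, 6.16 and 6.12 against 5.65, 6.54, 5.80 and 6.18. Its other 3 transgenic livers lay within the control range (change 0.24, SE 0.22). Cdc20, the activator of that complex, had a change of 0.33 (adjusted p = 0.236).

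Spindle and motor proteins had 1 call in 8, with 7 not passing (median 1.05), against 4.67% of all genes called higher. Kif11, the motor that pushes the spindle poles apart (probe set 10462796), read 6.61, 7.79, 6.35 and 6.19 against 5.03, 5.60, 4.93 and 5.86. All transgenic livers were above all controls. The log2 fold change was 1.38 (2.60-fold, SE 0.34, limma adjusted p = 0.0461), and 1.03 without transgenic liver 2 (adjusted p = 0.0232). Kif15, a motor that backs up Kif11, had the largest SD of the 43 among the transgenic livers. It read 5.69, 7.08, 5.10 and 4.92 (SD 0.98) against 4.36, 4.83, 4.45 and 4.58 (SD 0.21). The groups did not overlap, but transgenic livers 3 and 4 were close to control 2 (change 1.14, SE 0.40, limma adjusted p = 0.0926). The other 6, Kif2c, Kif4, Tpx2, Dlgap5, Hmmr and Nusap1, had changes of 0.85 to 1.06.

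Cytokinesis genes had no call among 6 (median 1.07), which is near the 4.67% of all genes called higher. At an unadjusted p under 0.05, 6 of 6 were higher, against 15.3% of all genes. Ect2, which activates the GTPase that drives the contractile ring, had the smallest p of them. It read 7.53, 8.48, 7.61 and 7.40 against 6.39, 7.05, 6.32 and 7.28, so control 4 came close to transgenic liver 4 (change 0.998, SE 0.28, limma adjusted p = 0.0589). Anln, the scaffold anillin of that ring, read 6.62, 7.80, 6.03 and 5.95 against 5.19, 5.73, 4.74 and 5.79. Liver 2 was more than 1 log2 unit above every other liver (change 1.24, SE 0.39, adjusted p = 0.0761). Prc1, Kif23, Racgap1 and Kif20a, which organise the central spindle between the daughter cells, had changes of 1.20, 1.15, 0.898 and 0.91.

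None of the 9 measured kinases and cyclins of mitotic entry passed (median 0.90), which is near the 4.67% of all genes called higher. At an unadjusted p under 0.05, 8 were higher, against 15.3% of all genes. Melk, a kinase expressed in mitosis, had the smallest p of them. It read 6.34, 7.10, 5.88 and 5.72 against 5.12, 5.46, 5.05 and 5.48, with no overlap (change 0.98, SE 0.27, limma adjusted p = 0.0564). Ccna2, Plk1, Pbk and Aurkb also showed no overlap between the groups, with changes of 1.03, 0.94, 0.91 and 0.898. Ccnb2, Aurka and Cdk1, which start mitosis, overlapped with the controls, and so did Foxm1, a transcription factor of this gene set. Their changes were 0.73, 0.62, 0.60 and 0.44, with adjusted p-values of 0.119 to 0.171.

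None of the 7 kinetochore and chromosomal passenger genes passed either, and in none did the groups separate fully (median 0.62). Over all genes 4.67% were called higher and 11.2% separated fully, so with 7 genes both counts are near the background. At an unadjusted p under 0.05, 5 were higher, against 15.3% of all genes. Cenpe, the motor that carries chromosomes to the spindle equator, had the smallest p. It read 5.76, 6.70, 4.89 and 5.18 against 4.37, 4.41, 3.96 and 5.12. Transgenic liver 3 lay below control 4 (change 1.16, SE 0.37, limma adjusted p = 0.0774). Birc5, the passenger protein survivin, read 5.93, 6.71, 5.93 and 5.71 against 5.65, 6.23, 5.41 and 5.76, with a change of 0.31 (SE 0.23). Only transgenic liver 2 was above all its controls. Nuf2, Cenpf, Cdca8, Ndc80 and Spc25 had changes of 0.98, 0.77, 0.62, 0.46 and 0.39. Whether the roles differed from each other was not tested.

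**Figure D2:**
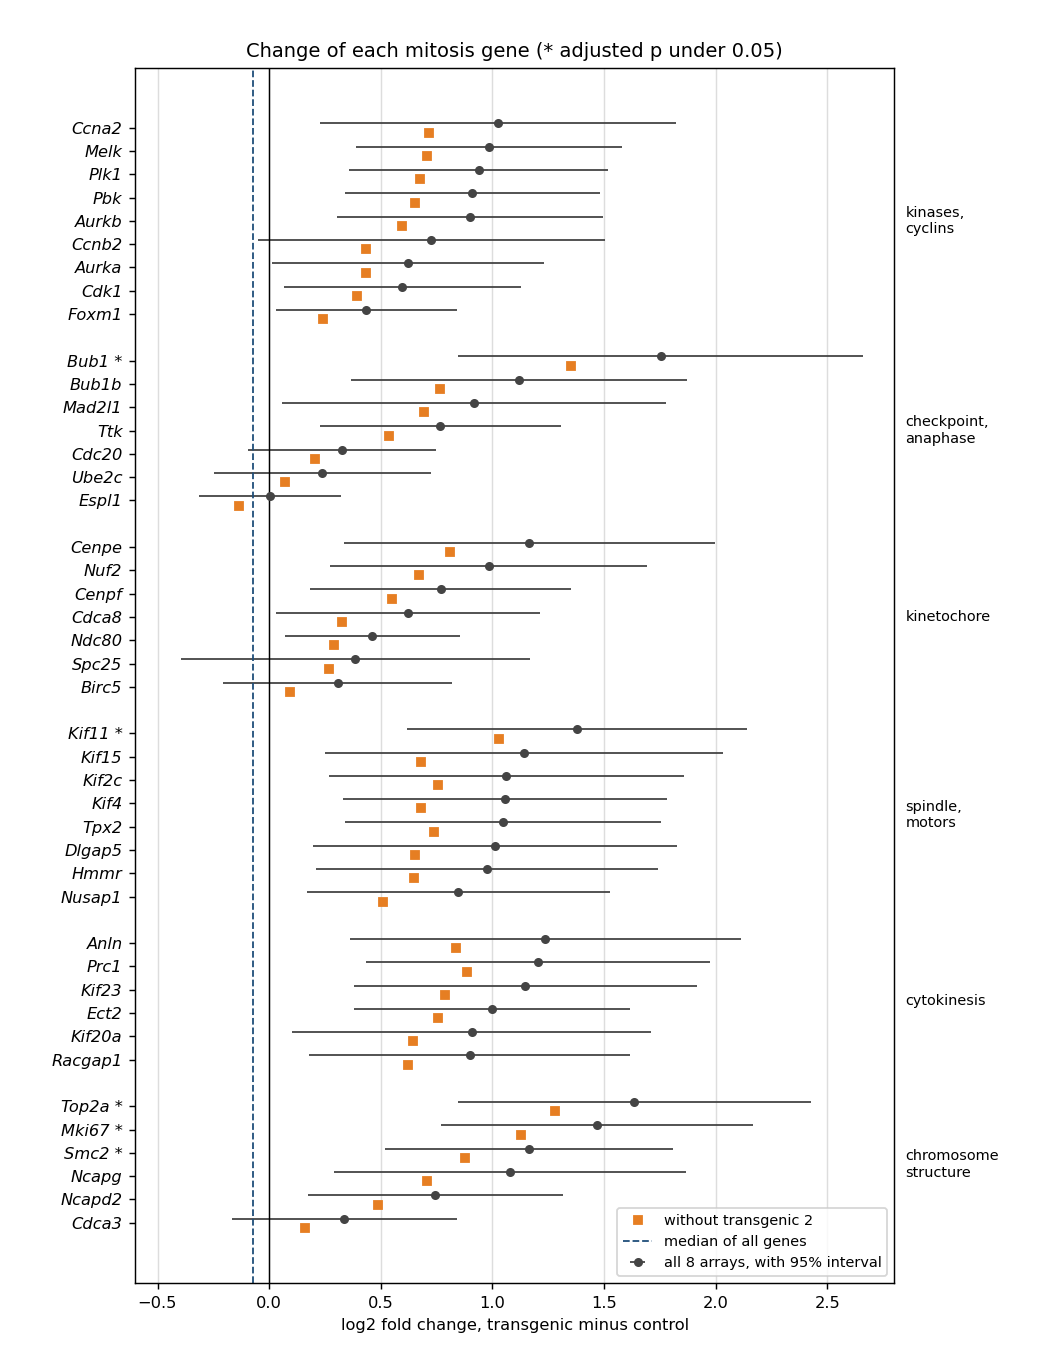
Log2 fold change (transgenic minus control) of each mitosis gene, grouped by role. Grey points are from all 8 arrays with 95% intervals of the limma fit, orange squares leave out transgenic liver 2, and the dashed line is the median of all genes (-0.07). Every square lies to the left of its point, and Espl1 is the only gene whose square lies below 0.

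The transgenic livers differed among themselves more than for most genes. The SD over the 4 transgenic arrays had a median of 0.61 over the mitosis genes and 0.16 over all genes, and over the controls 0.40 and 0.14. Without transgenic liver 2, the highest of its group for all 43, the median over the mitosis genes was 0.21. That value leaves out an extreme array, whereas the controls' 0.40 keeps theirs, so these values are not alike. The SD was larger in the transgenic group for 36 of 43, against 59.4% of all genes.

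The median range over the 4 transgenic livers was 1.36, and 0.38 over livers 1, 3 and 4. Over all genes the range over livers 1, 3 and 4 had a median of 0.24. Liver 2 read highest of the 4 for 43 of 43 mitosis genes, against 31.0% of all genes. It lay at least 0.5 above the mean of the other 3 transgenic livers for 41, against 9.56% of all genes; Cdc20 and Spc25 were the exceptions. The difference was 0.47 to 1.84 with a median of 1.16, whereas its median over all genes was -0.04. Liver 2 stayed highest for 43 of 43 after quantile normalization (median difference 1.01) and after centring arrays on their medians (1.26), a check added after the data were seen. Liver 4 was lowest for 26, liver 3 for 14 and liver 1 for 3, against 22.8%, 20.8% and 17.9% of all genes. Liver 1 came next to liver 2 for 36 mitosis genes, which was not counted over all genes.

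The mean over the 43 genes was 6.64, 7.55, 6.34 and 6.30 in transgenic livers 1 to 4 and 5.61, 6.12, 5.38 and 6.15 in controls 1 to 4. All 4 transgenic means were above all control means, but livers 3 and 4 were only slightly above controls 2 and 4. Without liver 2 the median change was 0.65. For 39 genes livers 1, 3 and 4 were each above the control mean. For 12 genes, livers 3 and 4 were both at or below the highest control. Neither was counted over all genes, so what is particular to the mitosis genes in these counts is not known. Ikbkb itself read higher in livers 1 and 2 than in livers 3 and 4. Among the controls it was highest in control 3 (7.85), which had the lowest mitosis mean, and lowest in control 2 (7.44). Whether the mitosis genes followed Ikbkb was not tested.

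The controls were uneven as well. Control 3 read lowest of its group for 34 of 43, against 21.8% of all genes, and control 4 highest for 27, against 21.0%. Control 2 was highest for 15, or 34.9%, which is near its 30.8% of all genes. The median range over the controls was 0.83.

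Promoters of mitosis genes are known for a pair of elements. The CHR (cell cycle genes homology region) binds MuvB complexes, which repress these genes in resting cells and activate them in mitosis, and the CCAAT box binds NF-Y. RefSeq start sites on GRCm38.p6 gave 39 windows for 37 of the 44 genes, each from 250 bases before to 50 after the start. The CHR was searched as TTTGAA or TTCGAA, the CCAAT box as CCAAT and an E2F site as TTTGGCGC, TTTCGCGC, TTTGGCGG or TTTCGCGG, on both strands and with overlapping matches each counted. A CHR stood in 82.1% of mitosis windows and 19.2% of all 32851 windows. A CCAAT box stood in 76.9% against 37.4%, both motifs in 71.8% against 7.52%, and an E2F site in 10.3% against 1.6%. Such matches are letters in a window and do not show that a factor bound.

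The 150 bases before the start are shown for the 5 called genes and for the 3 with the smallest changes, Espl1, Ube2c and Birc5, so that both ends of the list can be compared. They are written 5′ to 3′ on the gene's strand, with motif matches in capitals.
Bub1 chr2:127831860-127832009, reverse strand: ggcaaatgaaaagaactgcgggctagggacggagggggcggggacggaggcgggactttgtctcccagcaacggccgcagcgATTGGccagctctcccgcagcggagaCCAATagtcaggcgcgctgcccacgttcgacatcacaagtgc
Kif11 chr19:37376232-37376381, forward strand: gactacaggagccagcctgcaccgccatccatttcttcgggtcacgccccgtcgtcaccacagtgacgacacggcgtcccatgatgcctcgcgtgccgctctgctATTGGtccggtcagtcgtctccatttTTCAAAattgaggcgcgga
Top2a chr11:99024190-99024339, reverse strand: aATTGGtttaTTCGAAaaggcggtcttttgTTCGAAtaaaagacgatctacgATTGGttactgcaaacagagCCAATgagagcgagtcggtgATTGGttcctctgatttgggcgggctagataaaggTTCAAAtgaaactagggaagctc
Mki67 chr7:135716380-135716529, reverse strand: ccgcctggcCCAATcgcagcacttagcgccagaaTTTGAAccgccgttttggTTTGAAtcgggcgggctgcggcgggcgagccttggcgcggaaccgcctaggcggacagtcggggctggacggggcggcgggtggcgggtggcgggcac
Smc2 chr4:52439071-52439220, forward strand: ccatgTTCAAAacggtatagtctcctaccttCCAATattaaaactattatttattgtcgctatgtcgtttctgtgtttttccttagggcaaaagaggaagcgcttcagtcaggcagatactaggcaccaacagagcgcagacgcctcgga
Espl1 chr15:102296143-102296292, forward strand: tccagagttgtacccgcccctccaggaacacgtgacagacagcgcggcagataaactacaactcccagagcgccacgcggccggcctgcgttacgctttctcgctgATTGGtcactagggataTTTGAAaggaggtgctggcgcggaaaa
Ube2c chr2:164769779-164769928, forward strand: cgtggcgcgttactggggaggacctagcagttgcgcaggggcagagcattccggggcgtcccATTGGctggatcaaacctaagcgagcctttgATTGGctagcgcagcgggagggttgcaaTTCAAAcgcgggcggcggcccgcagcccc
Birc5 chr11:117849087-117849236, forward strand: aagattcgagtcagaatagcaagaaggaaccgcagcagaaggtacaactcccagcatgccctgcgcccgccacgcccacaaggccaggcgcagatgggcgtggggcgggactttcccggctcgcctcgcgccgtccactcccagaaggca

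In these stretches Top2a held 3 CHR and 4 CCAAT matches and Mki67 2 and 1, whereas Kif11 and Smc2 held 1 of each. Bub1 held 2 CCAAT boxes, and its CHR began at base 15 after the start, outside the stretch. Espl1 and Ube2c, with changes of 0.0033 and 0.24, also held a CHR and at least 1 CCAAT box, and none of the letters searched was found in the Birc5 window. The 26 measured genes with both motifs had a median log2 fold change of 0.92, and the 10 with a window but not both had 0.98.

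**Figure D3:**
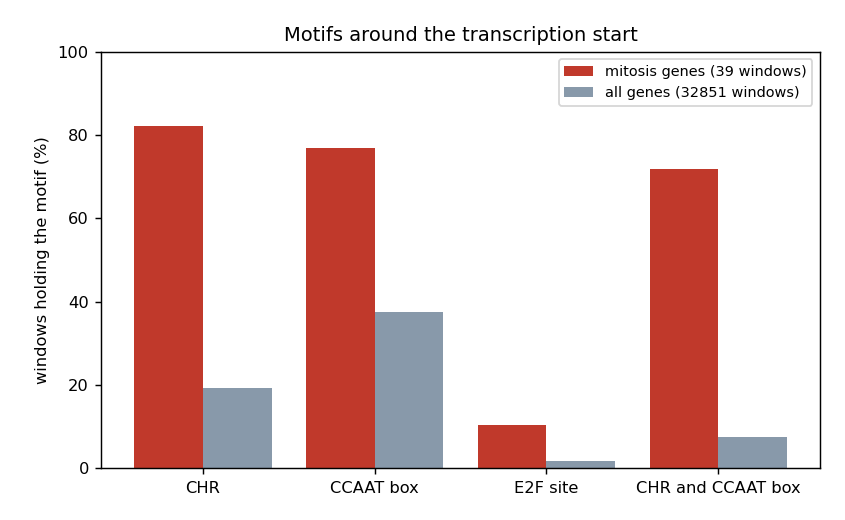
Share of promoter windows (percent) that hold each motif, for the 39 windows of mitosis genes (red) and all 32851 windows (grey). Both motifs together stood in 71.8% of mitosis windows and 7.52% of all.

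Other genes of the cell cycle were read from 8 further lists. Their counts stand against 4.67% of all genes called higher. DNA replication genes, which act in S phase before mitosis, had 12 of 33 higher, 0 lower and 21 not passing (median 0.70). Uhrf1, which helps copy DNA methylation, rose by 1.52 (limma adjusted p = 0.0269) and Mcm3, of the replicative helicase, by 1.47 (adjusted p = 0.0131). Among 16 other condensin and cohesin genes 2 rose, Ncapg2 by 1.63 (adjusted p = 0.0181) and Stag1 by 0.55 (adjusted p = 0.0437), and 14 did not pass (median 0.49). Of 22 E2F, RB, MuvB and NF-Y regulators 3 rose and 19 did not pass (median 0.09): the pocket proteins Rbl1 and Rb1, which restrain E2F, rose by 1.20 and 0.74, and Nfya, a subunit of NF-Y, rose by 0.71. Of 15 G1 cyclins, kinases and inhibitors 2 rose, the D cyclins Ccnd1 by 1.02 and Ccnd2 by 0.66 (adjusted p = 0.0431 and 0.0444), and 13 did not pass (median 0.36). Of 15 genes of the anaphase-promoting complex 1 rose, Anapc4 by 0.62, and 14 did not pass (median 0.21). With 15 genes, 1 call is near the share of all genes.

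The remaining mitosis lists had no call. The medians were 0.65 over 25 other spindle and centrosome genes, 0.41 over 16 other controls of mitotic entry and 0.40 over 26 other kinetochore and checkpoint genes. At an unadjusted p under 0.05, limma had 18, 5 and 10 of them higher, against 15.3% of all genes, and 0, 0 and 1 lower. Their smallest adjusted p-values were 0.0645 for Sass6, a centriole protein, 0.0581 for the phosphatase Cdc25a, and 0.0642 for Kntc1 of the checkpoint. No gene of the 8 lists was called lower, against 1.67% of all genes. Liver 2 was the highest transgenic liver for 25 of the 25 spindle, 32 of the 33 replication, 23 of the 26 kinetochore and 16 of the 16 condensin and cohesin genes, against 31.0% of all genes. It was so for 13 of the 16 entry genes, 12 of the 15 of the anaphase-promoting complex, 11 of the 15 G1 genes and 15 of the 22 regulators, and it was the lowest for 2 each of the G1 genes and regulators and for 1 of the complex.

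Markers of macrophages, monocytes, neutrophils and T and NK cells had higher means in every transgenic liver than in any control. These means were highest in liver 2, as those of the mitosis genes were. For neutrophils only 6 of 12 markers had a positive change. Endothelial means were also higher in every transgenic liver (8.16 to 8.30 against 7.80 to 8.13), but were highest in liver 3. Markers of the remaining cell types were mixed. Of all genes, 4.67% were called higher and 1.67% lower, and 15.3% were higher at an unadjusted p under 0.05. Of 12 Kupffer cell and macrophage markers 10 rose, and liver 2 was the highest transgenic liver for 12 of 12. Their mean was 10.37 in liver 2, 9.07 to 9.43 in the other transgenic livers and 7.85 to 8.24 in the controls; their summed linear signal was 17195, 7648 to 9258 and 2945 to 3896. Of 8 monocyte markers 7 rose, with means of 7.30, 5.71 to 6.41 and 4.202 to 4.31 and sums of 1835, 520.0 to 1023 and 164 to 182. Of 10 T and NK cell markers 4 rose, with means of 5.69, 4.93 to 5.19 and 4.49 to 4.60 and sums of 667, 364 to 455 and 253 to 271. Of 12 neutrophil markers 1 rose, Lcn2, which hepatocytes also make. Liver 2 was the highest transgenic liver for 9 of these markers and the lowest for 2, against 31.0% and 38.6% of all genes. Their median change was 0.11, with means of 5.61, 4.95 to 5.11 and 4.56 to 4.82; the sums were 8165, 3379 to 6944 and 475 to 656, and most of the sum in liver 2 was Lcn2, which read 12.93 there. Markers of B and plasma cells gave no call among 9, also at an unadjusted p under 0.05. Their means were 4.93, 4.85 to 5.11 and 4.83 to 5.01, with a median change of -0.05. Their sums were 1377, 999 to 1080 and 935 to 1063, and most of the sum in liver 2 was Xbp1, which read 10.24 there and 9.53 to 9.79 in the controls. Those of bile duct gave none among 7, with 2 higher and 1 lower at that p (601, 351 to 389 and 292 to 365). Erythroid precursor markers gave 1 higher and 2 lower of 9 (sums 2298, 1386 to 1734 and 1171 to 1326). The higher one was Tfrc, which read 9.73 in liver 2, and Car1 was among the lower. Erythroid means overlapped between the groups (6.39, 6.12 to 6.31 and 6.13 to 6.35). Endothelial markers gave 2 higher of 10 (4277, 4339 to 4657 and 3839 to 4305) and stellate ones 3 higher of 10 (5172, 5442 to 5819 and 3517 to 4435). Their part in the higher mitosis transcripts was not tested, nor was that of hepatocytes, none of whose 10 markers passed and 1 of which was lower at an unadjusted p under 0.05 (sums 60268, 62906 to 70425 and 67544 to 71992).

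**Figure D4:**
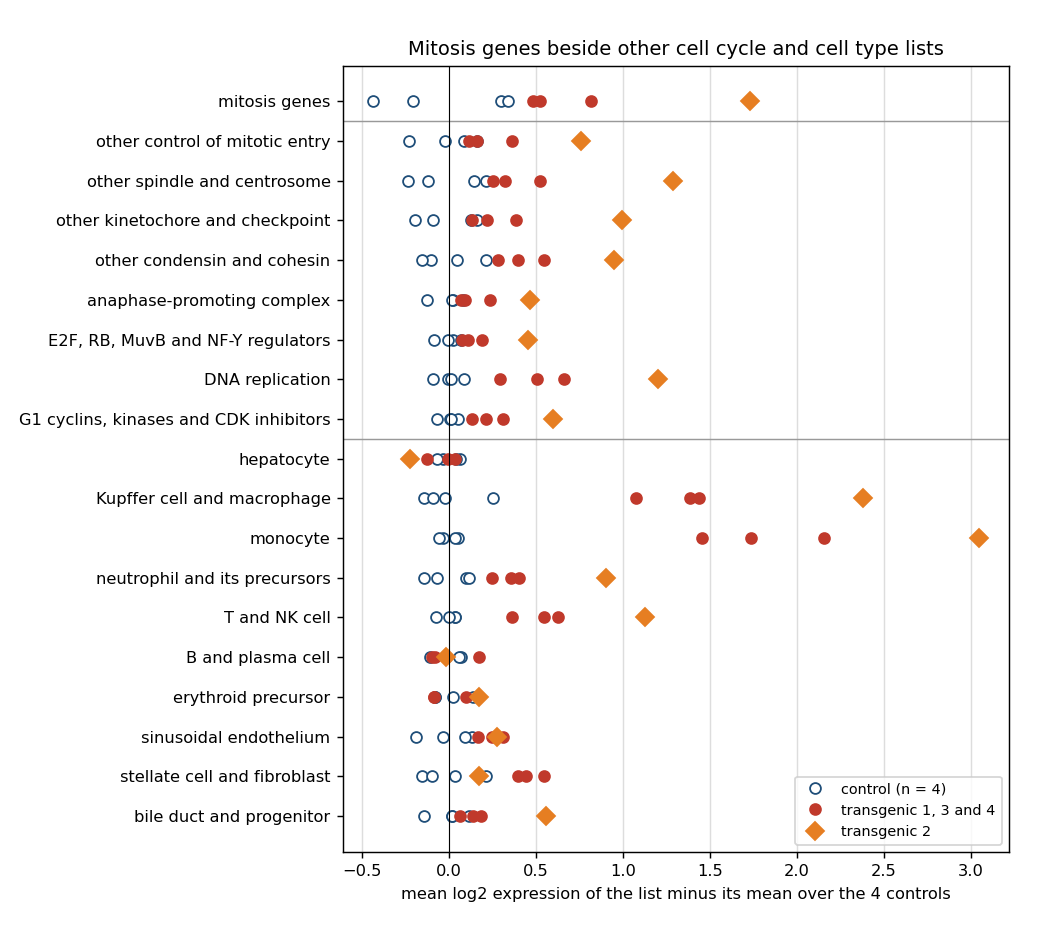
Mean log2 expression of the mitosis genes, 8 other cell cycle lists and 10 cell type lists in each liver, minus the list's mean over the 4 controls. Symbols are open circles for controls, filled circles for transgenic livers 1, 3 and 4, and diamonds for transgenic liver 2. The diamond lies furthest right for the mitosis genes and all 8 other cell cycle lists. It also does so for the macrophage, monocyte, neutrophil, T and NK cell, erythroid and bile duct lists. For hepatocyte markers it lies furthest left, and for stellate markers it is the leftmost of the transgenic livers.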

How the data were processed

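Liver RNA of 8 mice was measured on 8 Affymetrix arrays. The authors deposited log2 expression values per probe set, which the submitters' processing notes tie to Affymetrix Expression Console; its version, settings and normalization were not given in the sources used here, and base 2 was read from the range of the values. Detection calls were not used here, so no background was known, and precision is limited by the number of arrays. Of 35556 probe sets 21789 had 1 gene symbol, 1621 several and 12146 none. No further normalization was applied. Limma 3.58.1 in R 4.3.3 was fitted to the 21789 (group as the only term, empirical Bayes, two-sided, Benjamini-Hochberg), and genes were counted through their brightest probe set, with a call at an adjusted p under 0.05. The steps were tested on simulated data. Summed signals add 2 to the power of each log2 value.

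The mitosis genes and all lists were chosen with earlier results of these data known, so lists are described by counts and medians with no set test. Values per array are given for called genes, the smallest p of each role, the 3 largest transgenic SDs and the 3 smallest changes; of other lists up to 2 called genes, or the smallest p. Nfya and Xbp1 were named after their values were seen. Promoter windows came from RefSeq (GRCm38.p6), and 7 genes without one were left out of the motif search. The alternatives were scaling, a filter on dim probe sets, all probe sets, mean of probe sets, moderation, array weights, a replicate block and leaving out each array.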

Additional observations from a re-analysis of the deposited data

Results flagged for a closer look

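In 6 of 88 groups of 4 arrays (the 43 mitosis genes and Ikbkb, in transgenic and control livers) 1 array lay far from the other 3 by Dixon's criterion, which chance meets in about 1 of 20 groups. It was transgenic liver 2 each time. Aurka, the kinase of the spindle poles, read 7.59 there and 6.78 to 6.92 in the other transgenic livers. Cdc20 read 7.64 against 7.10 to 7.19, and Ube2c 6.79 against 6.05 to 6.16. The spindle proteins Dlgap5, Hmmr and Nusap1 read 7.93 against 6.39 to 6.57, 7.21 against 5.82 to 6.05, and 6.85 against 5.35 to 5.60. None of these 6 genes passed the test between groups.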

How the results depend on the processing

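Of 16 alternatives, the number of mitosis genes called higher changed most with the arrays kept: it ranged from 0 to 17 over the 8 omissions of 1 array, against 5 with all. It was 2 with arrays centred on their median (Top2a and Mki67), against 3.1% of all genes. Without the dimmest 30% of probe sets it was 9, but the share of all genes kept also rose, from 4.67% to 8.15%. With array weights it was 8, against 5.17% of all genes. Fitting all deposited probe sets gave 0, against 2.13% of all genes called higher. In that fit 35 were higher at an unadjusted p under 0.05, which was not counted over all genes. The adjusted p-values of limma then began at 0.0588. More probe sets were adjusted over and the moderation was refitted, and these were not separated. Quantile normalization gave 6, averaging probe sets 5, and trend and robust moderation 4, against 5.35%, 4.75% and 5% of all genes. No mitosis gene was called lower in any of the 16. The median change ranged from 0.65 to 1.08 in all of them. In checks added after the data were seen, the median SD over the transgenic livers, 0.61, was 0.54 and 0.67 under both other scalings and ranged from 0.21 (without liver 2) to 0.75 (without liver 1). Espl1 alone changed sign, to -0.073 with array weights, and ranged from -0.13 (without transgenic liver 2; -0.066 without control 1) to 0.081 (without transgenic liver 3) with 1 array left out; the cause was not tested. Over all genes, 618 were higher and 97 lower after centring and 1066 and 638 after quantile normalization, against 932 and 333. With 1 array left out they ranged from 192 and 10 (without control 2) and 199 and 3 (without transgenic liver 1) to 1636 and 944 (without transgenic liver 4). The share of all genes called higher thus ranged from 0.963% to 8.21%, against 4.67% with all arrays. The number called lower ranged from 3 to 944, against 333 (1.67%), so both background shares depended strongly on single arrays. Centring moved the median of all genes from -0.07 to 0.01. The replicate block gave 9 calls, against 3.36% of all genes. Of the 9, 4 were among the 5, with Smc2 lost. Deviations of same-numbered arrays had correlations of 0.24, -0.03, 0.26 and -0.13 for numbers 1 to 4. The highest with a control of another number was 0.165, 0.175, 0.168 and 0.143. The same number was thus the higher for 1 and 3 but not for 2 and 4, and the numbers were not taken to pair the animals.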

Other observations

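Top2a had a second probe set, which read 2.31 to 2.54 in all 8 livers with a log2 fold change of 0.03, while its brighter one rose. Averaged over both, the change of Top2a was 0.83. E2F sites were found in the promoter windows of Cdk1, Kif15, Melk and Ncapd2 only, of the 37 mitosis genes with a window. None of the motif letters searched was found in those of Birc5, Mad2l1, Nuf2 and Nusap1.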
